A study of Mus musculus with 9 samples.

Results

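The core circadian clock genes were followed in mouse aorta after gene transfer. The set comprised 10 genes, Arntl, Clock, Npas2, Per1, Per2, Per3, Cry1, Cry2, Nr1d1 and Nr1d2, of 18193 genes measured. All 23 probe sets that the platform annotation assigns to these symbols alone were used, of 45101 on the array. The genes were chosen from group differences already seen on these same arrays, so their values and differences are a description and carry no test.

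Female APOE-/- mice on a C57BL/6 background, with an age of 8 weeks in the labels, ate a diet with 0.2% cholesterol and 10% coconut oil for 30 weeks, which was given to induce atherosclerosis. A single tail-vein injection then held HDAd-gE3, HDAd-0 or PBS, and the aortas were taken 10 days later. HDAd-gE3 is a helper-dependent adenovirus, a vector without viral genes, that carries human apolipoprotein E3; HDAd-0 is the empty vector given at the same dose of viral particles, and PBS is the saline vehicle. Each array measured RNA of 3 aortas, from sinus to arch, pooled, and each group had 3 arrays. All 3 groups lacked Apoe and ate the same diet. HDAd-0 against PBS addresses the vector, HDAd-gE3 against HDAd-0 the transgene, and HDAd-gE3 against PBS both together. The labels give no hour of killing, so the phase of the day and the group cannot be told apart here. Running numbers in the arrays' titles fall in separate blocks for the groups, and their meaning is not stated.

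The mammalian clock is a feedback loop of transcription that runs with a period of about a day in almost every cell, vascular smooth muscle and endothelium included. BMAL1 (the product of Arntl), paired with CLOCK or its relative NPAS2, binds E-box sequences and switches on the Per and Cry genes, whose proteins return to the nucleus and repress their own activators. The nuclear receptors REV-ERB alpha (Nr1d1) and REV-ERB beta (Nr1d2) are switched on by the same activators and repress Arntl, Clock, Npas2 and Cry1 through the ROR response element (RRE), so that Arntl and Nr1d1 peak in opposite phases of the day. D-box elements, bound by DBP, TEF, HLF and the repressor NFIL3, add a further loop that acts on the Per genes among others.

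These elements can be read in the genes' own promoters. RefSeq (GRCm38.p6) windows from 250 bases before to 50 bases after an annotated start site were matched by symbol for 9 of the 10 genes, 13 windows in all. Per2 had no window and was not searched. Both strands were searched for the E-box CACGTG, the D-box TTANGTAA, the RRE TAGGTCA and the cyclic AMP response element TGACGTCA. Windows that held a match are shown because they carry the letters of such an element, and whether these sites act in the loop was not tested. The letters are in capitals where the motif lies, 5′ to 3′ on the gene's strand. The first, from Cry1, is chr10:85185079-85185144 on the minus strand, with an E-box at position -60 from the start. The second, from Per1, is chr11:69098753-69098818 on the plus strand, with an E-box at position -166 from 1 of its 2 annotated starts. That start is internal: the window lies inside the gene, which begins at 69095108. The third, from Per3, is chr4:151044796-151044890 on the minus strand and holds 2 D-boxes whose first bases lie 47 bases apart, at positions -205 and -158. The last, from Arntl, is chr7:113207531-113207557 on the plus strand, with an RRE at position 31, inside the transcribed part next to 1 of its annotated starts.
Cry1: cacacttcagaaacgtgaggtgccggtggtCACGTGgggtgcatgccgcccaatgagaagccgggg
Per1: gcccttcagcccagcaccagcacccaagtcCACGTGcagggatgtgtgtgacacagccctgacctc
Per3: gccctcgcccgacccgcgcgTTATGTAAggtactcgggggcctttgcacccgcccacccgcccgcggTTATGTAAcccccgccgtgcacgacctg
Arntl: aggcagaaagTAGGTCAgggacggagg

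Across all 32851 promoter windows of the same length, 7.15% held the E-box, 2.32% the D-box, 2.61% the RRE and 1.79% the cyclic AMP element. Among the clock genes the E-box was found in Cry1 and Per1, the D-box in Per3 and the RRE in Arntl, while the cyclic AMP element was in none of the 13 windows. A match is a run of letters and not a measured binding site, and windows without one say nothing of more distant elements.

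The values are log2 signals, on which a difference of 1 is a doubling. They ran from 1.98 to 14.7 over all arrays, with array medians from 6.67 to 6.77, and the lowest correlation between a pair of arrays was 0.991. The 3′ minus 5′ signal of control probe sets, a sign of RNA quality, was 0.78 to 0.92 with PBS, 0.76 to 1.08 with HDAd-0 and 0.67 to 0.81 with HDAd-gE3. Smooth muscle markers (5 of 5 measured), which define the aortic wall, summed to 15.56 to 15.75 on every array. Markers of other cell types, the endothelium of the vessel included, and of other tissues differed between groups, some with overlap. Cardiac muscle markers (7 of 7) summed to 16.13 to 16.16 with PBS, 15.12 to 15.81 with HDAd-0 and 15.69 to 16.51 with HDAd-gE3, and endothelial markers (5 of 5) to 13.32 to 13.40, 13.66 to 13.85 and 13.43 to 13.45. Neutrophil markers (7 of 7) summed to 14.04 to 14.25, 13.67 to 14.30 and 14.57 to 15.18, and erythroid markers (3 of 6) to 11.67 to 11.99, 12.50 to 12.99 and 12.95 to 13.39. HDAd-0 replicate 5 stood apart: its liver markers (6 of 7) summed to 13.29 against 10.72 to 11.03 with PBS, 11.62 and 12.22 on the other HDAd-0 arrays and 10.96 to 12.14 with HDAd-gE3. Its skeletal muscle markers (7 of 7) summed to 11.31 against 10.28 to 10.87 with PBS, 9.78 and 10.79 on the other HDAd-0 arrays and 9.06 to 10.38 with HDAd-gE3. These arrays give no level of 0. The dimmest erythroid, skeletal muscle and neutrophil markers were Hba-a1, Myh4 and Elane, with mean signals of 3.53, 4.52 and 4.78. Of the 3 erythroid markers measured, 2 were higher and 1 lower than with PBS in either vector group. The part of these cell types and tissues in the values of the clock genes and of the other gene lists was not tested. In pooled tissue, fewer cells of a type and less RNA per cell cannot be told apart.

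The clock genes fell into opposite sets. With either vector the activators Arntl, Clock and Npas2 and the repressor Cry1 read lower than with PBS on all arrays, while Nr1d1, Nr1d2 and Cry2 read higher on all arrays. Per1 read 1.55-fold and 1.45-fold higher on average, and Per2 and Per3 were close to PBS on their brightest probe sets. Each gene is described by its probe set with the highest mean, and the other probe sets follow.

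**Figure D1:**
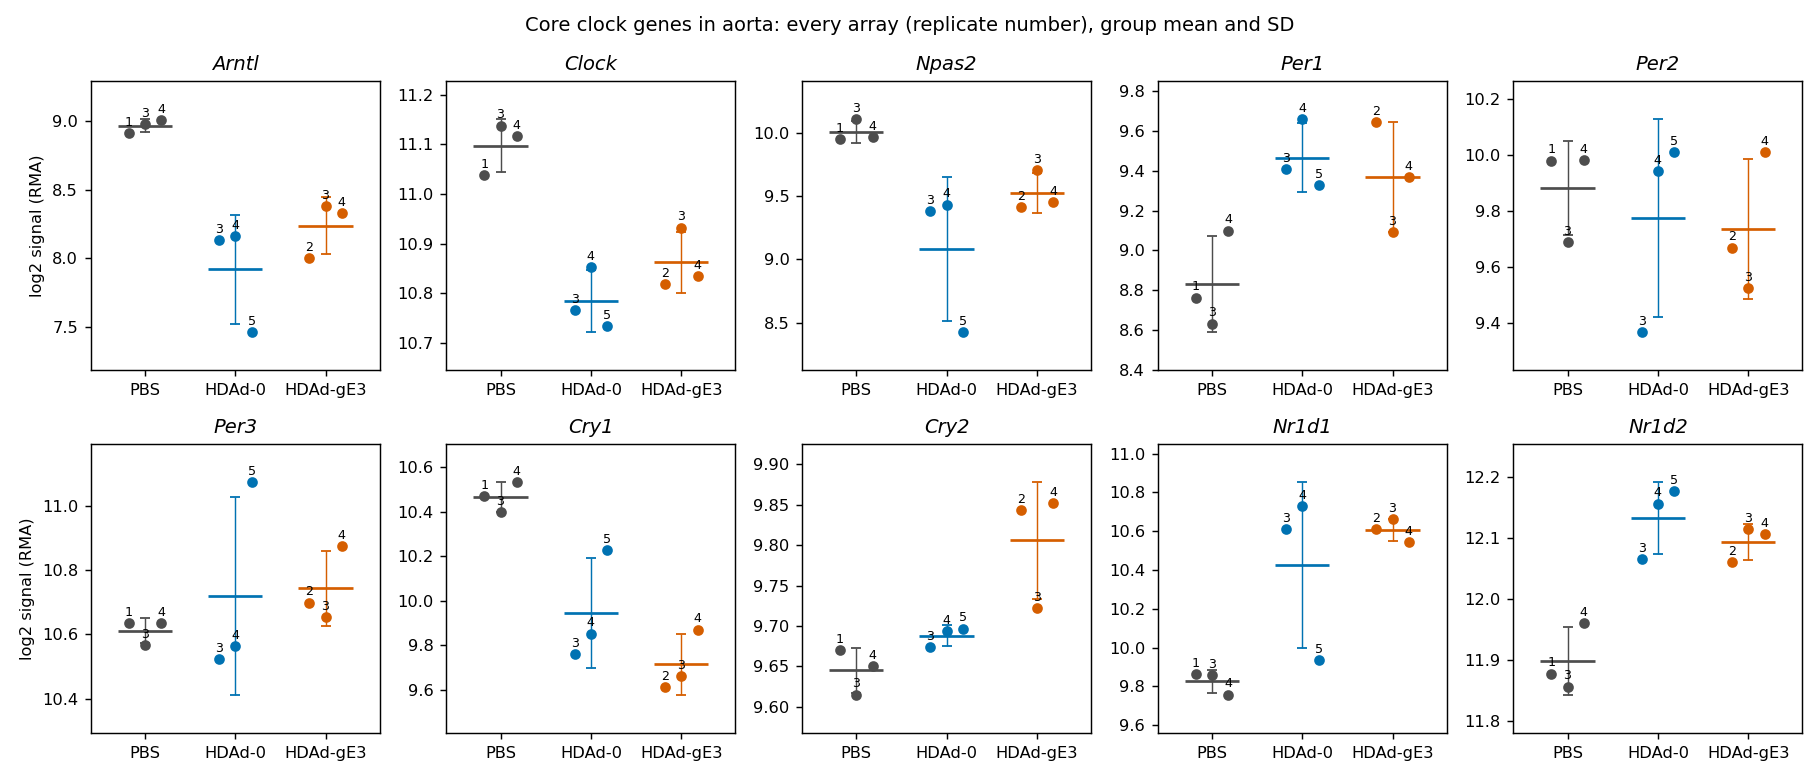
Log2 signal (vertical axis, a separate scale in each panel) of each core clock gene on every array of the PBS, HDAd-0 and HDAd-gE3 groups (horizontal axis); points carry replicate numbers, long bars are group means and whiskers are SDs (n = 3). Arntl, Clock, Npas2 and Cry1 sit lower in both vector groups than with PBS, Nr1d1 and Nr1d2 sit higher, and HDAd-0 replicate 5 lies far from its group for Arntl (7.46), Npas2 (8.43) and Nr1d1 (9.93).

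Arntl encodes BMAL1, the partner that every activator complex of the clock needs (probe set 1425099_a_at; gene at chr7:113178471-113314126). Its log2 signal was 8.91, 8.97 and 9.005 in PBS replicates 1, 3 and 4, and 8.13, 8.16 and 7.46 in HDAd-0 replicates 3, 4 and 5. In HDAd-gE3 replicates 2, 3 and 4 it was 8.00, 8.38 and 8.33. All 6 vector arrays lay below all 3 PBS arrays, and the vector groups overlapped, with HDAd-0 replicate 5 lowest of all. The means were 8.96 ± 0.047, 7.92 ± 0.40 and 8.24 ± 0.21 (SD, n = 3). Arntl was 2.06-fold lower with HDAd-0 than with PBS (log2 difference -1.04 ± 0.18, SE) and 1.65-fold lower with HDAd-gE3 (-0.73 ± 0.18). HDAd-gE3 and HDAd-0 differed by 0.32 ± 0.18, and by 0.09 ± 0.11 without HDAd-0 replicate 5. Of all genes, 0.621% differed more in size between HDAd-0 and PBS, where Arntl ranked 114, and 0.852% between HDAd-gE3 and PBS.

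Clock encodes the usual partner of BMAL1, a subunit with histone acetyltransferase activity (1418659_at; chr5:76209868-76305603). It read 11.04, 11.14 and 11.12 with PBS, 10.77, 10.85 and 10.73 with HDAd-0, and 10.82, 10.93 and 10.83 with HDAd-gE3. The PBS arrays were again highest without overlap, but the step was small beside that of Arntl: the means were 11.10 ± 0.053, 10.78 ± 0.062 and 10.86 ± 0.061. The log2 difference from PBS was -0.31 ± 0.062 with HDAd-0 (1.24-fold lower) and -0.24 ± 0.062 with HDAd-gE3 (1.18-fold lower). Between the vectors it was 0.08 ± 0.062, with overlapping arrays.

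Npas2 encodes a relative of CLOCK that also pairs with BMAL1 and is well expressed in blood vessels (1421037_at; chr1:39193702-39363240). Its signal was 9.95, 10.10 and 9.96 with PBS, 9.38, 9.43 and 8.43 with HDAd-0, and 9.41, 9.71 and 9.45 with HDAd-gE3. PBS was highest on every array, the vector groups overlapped, and HDAd-0 replicate 5 was far below its companions. The means were 10.00 ± 0.087, 9.08 ± 0.56 and 9.52 ± 0.16. Npas2 was 1.90-fold lower with HDAd-0 (-0.92 ± 0.24) and 1.40-fold lower with HDAd-gE3 (-0.48 ± 0.24) than with PBS. Without HDAd-0 replicate 5 the difference of HDAd-0 from PBS was -0.60 ± 0.10 and that between the vectors moved from 0.44 ± 0.24 to 0.12 ± 0.10. Arntl, Clock and Npas2 had their lowest value on the same array in each group: PBS replicate 1, HDAd-0 replicate 5 and HDAd-gE3 replicate 2.

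Among the repressors, Per1, a period gene that responds quickly to hormones and cyclic AMP, was higher with the vectors (1449851_at; chr11:69095108-69109965). It read 8.76, 8.63 and 9.10 with PBS, 9.41, 9.66 and 9.33 with HDAd-0, and 9.64, 9.09 and 9.37 with HDAd-gE3. The HDAd-0 arrays lay above all PBS arrays, whereas HDAd-gE3 replicate 3 fell just below PBS replicate 4, so those groups overlapped by a hair. The means were 8.83 ± 0.24, 9.47 ± 0.17 and 9.37 ± 0.28, a log2 difference from PBS of 0.63 ± 0.17 (1.55-fold) with HDAd-0 and 0.54 ± 0.17 (1.45-fold) with HDAd-gE3. Between the vectors it was -0.10 ± 0.17.

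Per2, whose product stabilises the repressor complex with the cryptochromes, read 9.98, 9.69 and 9.98 with PBS (1417602_at; chr1:91415977-91459351). With HDAd-0 it read 9.37, 9.94 and 10.01, and with HDAd-gE3 9.67, 9.52 and 10.01. All 3 groups overlapped, and the means of 9.88 ± 0.17, 9.77 ± 0.35 and 9.73 ± 0.25 were closer than the SDs. The log2 differences were -0.11 ± 0.19 for HDAd-0 against PBS, -0.04 ± 0.19 for HDAd-gE3 against HDAd-0 and -0.15 ± 0.19 for HDAd-gE3 against PBS. Per3, a period gene that the central clock can run without, read 10.63, 10.57 and 10.63 with PBS, 10.52, 10.56 and 11.07 with HDAd-0, and 10.70, 10.65 and 10.88 with HDAd-gE3 (1421087_at; chr4:150997018-151044707). HDAd-0 replicate 5 was the highest array and the other HDAd-0 arrays were below every PBS array, so that the difference of 0.11 ± 0.14 between HDAd-0 and PBS became -0.07 ± 0.080 without it. The HDAd-gE3 arrays lay above all PBS arrays, by 0.13 ± 0.14 on average.

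Cry1 encodes the stronger of the cryptochrome repressors and is itself under REV-ERB control (1433733_a_at; chr10:85131700-85185054). Its signal was 10.47, 10.40 and 10.53 with PBS, 9.76, 9.85 and 10.23 with HDAd-0, and 9.61, 9.66 and 9.87 with HDAd-gE3. Both vector groups lay below PBS without overlap, and HDAd-0 replicate 5 was the vector array nearest to PBS. The means were 10.47 ± 0.066, 9.95 ± 0.25 and 9.72 ± 0.14, so Cry1 was 1.43-fold lower with HDAd-0 (-0.52 ± 0.12) and 1.68-fold lower with HDAd-gE3 (-0.75 ± 0.12). The difference between the vectors was -0.23 ± 0.12, and -0.09 ± 0.092 without HDAd-0 replicate 5.

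Cry2, the other cryptochrome, varied little (1426383_at; chr2:92403646-92434085). It read 9.67, 9.62 and 9.65 with PBS, 9.67, 9.69 and 9.70 with HDAd-0, and 9.84, 9.72 and 9.85 with HDAd-gE3. The 3 groups did not overlap, but the steps were small: the lowest HDAd-0 array and the highest PBS array agreed to 2 decimals. The log2 differences were 0.04 ± 0.056 for HDAd-0 against PBS, 0.12 ± 0.056 for HDAd-gE3 against HDAd-0 (1.08-fold) and 0.16 ± 0.056 for HDAd-gE3 against PBS (1.12-fold). On the brightest probe sets, Cry2 was the only gene of the set whose arrays did not overlap between the vectors.

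Nr1d1 encodes REV-ERB alpha, the repressor of Arntl transcription (1426464_at; chr11:98767932-98775377). Its signal was 9.86, 9.86 and 9.76 with PBS, 10.61, 10.73 and 9.93 with HDAd-0, and 10.61, 10.66 and 10.55 with HDAd-gE3. All vector arrays were above all PBS arrays, but HDAd-0 replicate 5 was close to PBS while the other 5 vector arrays spanned 10.55 to 10.73. The means were 9.83 ± 0.059, 10.42 ± 0.43 and 10.61 ± 0.059. Nr1d1 was 1.52-fold higher with HDAd-0 (0.60 ± 0.18) and 1.72-fold higher with HDAd-gE3 (0.78 ± 0.18) than with PBS. Without HDAd-0 replicate 5 the HDAd-0 difference from PBS was 0.85 ± 0.072, and that between the vectors changed sign from 0.18 ± 0.18 to -0.06 ± 0.072. Of all genes, 0.726% differed more in size between HDAd-gE3 and PBS, where Nr1d1 ranked 133. Its end overlaps that of Thra, a thyroid hormone receptor gene on the opposite strand (1075 bases shared in RefSeq), and whether the probe set also reads Thra was not tested.

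Nr1d2 encodes REV-ERB beta (1416958_at; chr14:18204056-18239106). It read 11.88, 11.86 and 11.96 with PBS, 12.06, 12.16 and 12.18 with HDAd-0, and 12.06, 12.11 and 12.11 with HDAd-gE3. The vector arrays were all higher, with means of 12.13 ± 0.059 and 12.09 ± 0.029 against 11.90 ± 0.055. The log2 difference from PBS was 0.23 ± 0.058 (1.18-fold) with HDAd-0 and 0.20 ± 0.058 (1.15-fold) with HDAd-gE3, and HDAd-0 replicate 5, which sat near PBS for Nr1d1, was the highest array for Nr1d2.

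**Figure D2:**
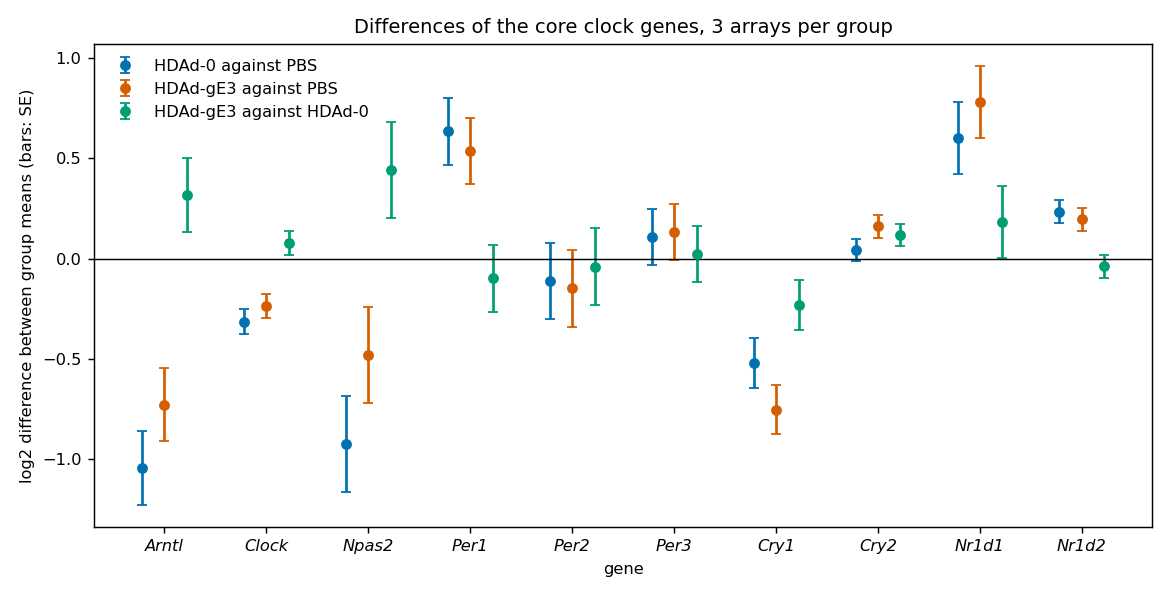
Log2 difference between group means (vertical axis, bars are SE of the fit over all 9 arrays) for each core clock gene (horizontal axis) in the 3 comparisons. The differences from PBS run from -1.04 (Arntl, HDAd-0) to 0.78 (Nr1d1, HDAd-gE3), and those between HDAd-gE3 and HDAd-0 from -0.23 (Cry1) to 0.44 (Npas2).

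Counted over the set, 8 of 10 genes did not overlap between HDAd-0 and PBS, where 18.8% of all genes did not overlap. Arntl, Clock, Npas2 and Cry1 were lower and Per1, Cry2, Nr1d1 and Nr1d2 higher. Between HDAd-gE3 and PBS, again 8 of 10 did not overlap, against 23.9% of all genes, with Per3 in the place of Per1. Between HDAd-gE3 and HDAd-0 it was 1 of 10, Cry2, against 16.3%. In limma's fit 0 of the 10 genes passed an adjusted p of 0.05 in any comparison, where 0.066% of all genes passed for HDAd-0 against PBS, 0.0055% for HDAd-gE3 against HDAd-0 and 0.126% for HDAd-gE3 against PBS. At an unadjusted p under 0.05, 7, 0 and 7 of the 10 passed, beside 12.9%, 12.9% and 13.2% of all genes. The first and the third comparison share the PBS arrays, so their likeness is not a separate finding, and since the genes were chosen from these contrasts nothing is read from their counts. The median size of their difference was 0.417 for HDAd-0 against PBS, 0.107 for HDAd-gE3 against HDAd-0 and 0.358 for HDAd-gE3 against PBS, beside 0.0930, 0.0967 and 0.0950 over all genes.

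The spread of these genes differed between the groups. The median SD of the 10 genes was 0.0570 with PBS, 0.277 with HDAd-0 and 0.127 with HDAd-gE3, where the medians over all genes were 0.0806, 0.122 and 0.0937. Thus 3 of 10 genes were above the median of all genes with PBS, 7 with HDAd-0 and 6 with HDAd-gE3. Npas2, Per2 and Arntl had SDs within groups above those of 94.9%, 90.7% and 89.9% of all genes, Nr1d1 above 89.4% and Per1 above 87.2%, whereas Clock, Nr1d2 and Cry2 had SDs above only 12.2%, 7.46% and 5.47%. HDAd-0 replicate 5 carried much of this. Its distance from the mean of the other HDAd-0 arrays was -0.98 for Npas2, -0.74 for Nr1d1, -0.68 for Arntl, 0.53 for Per3, 0.42 for Cry1 and 0.36 for Per2, but only -0.08 for Clock, where 64.9% of all genes lay further off. In the same array 1.07% of all genes lay further off than Npas2, 1.9% further than Nr1d1 and 2.33% further than Arntl. Arntl, Npas2 and Nr1d1 were thus low together in that pool, while Per3 and Cry1 were high. Per2 was set apart by replicate 3, which lay -0.61 from the mean of the other HDAd-0 arrays, with replicates 4 and 5 at 9.94 and 10.01. The median distance of the 10 genes was 0.388 in replicate 5, beside 0.117 over all genes. It was 0.278 in replicate 3 and 0.245 in replicate 4, beside 0.108 and 0.137 over all genes. The distances of replicates 3 and 4 are taken from means that include replicate 5. HDAd-0 replicates 3 and 4 lay close together for Arntl, Npas2, Per3, Cry1 and Nr1d1 and further apart for Per1 and Per2. Over the PBS arrays that median ran from 0.0652 to 0.0780, and over the HDAd-gE3 arrays from 0.0823 to 0.129.

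**Figure D3:**
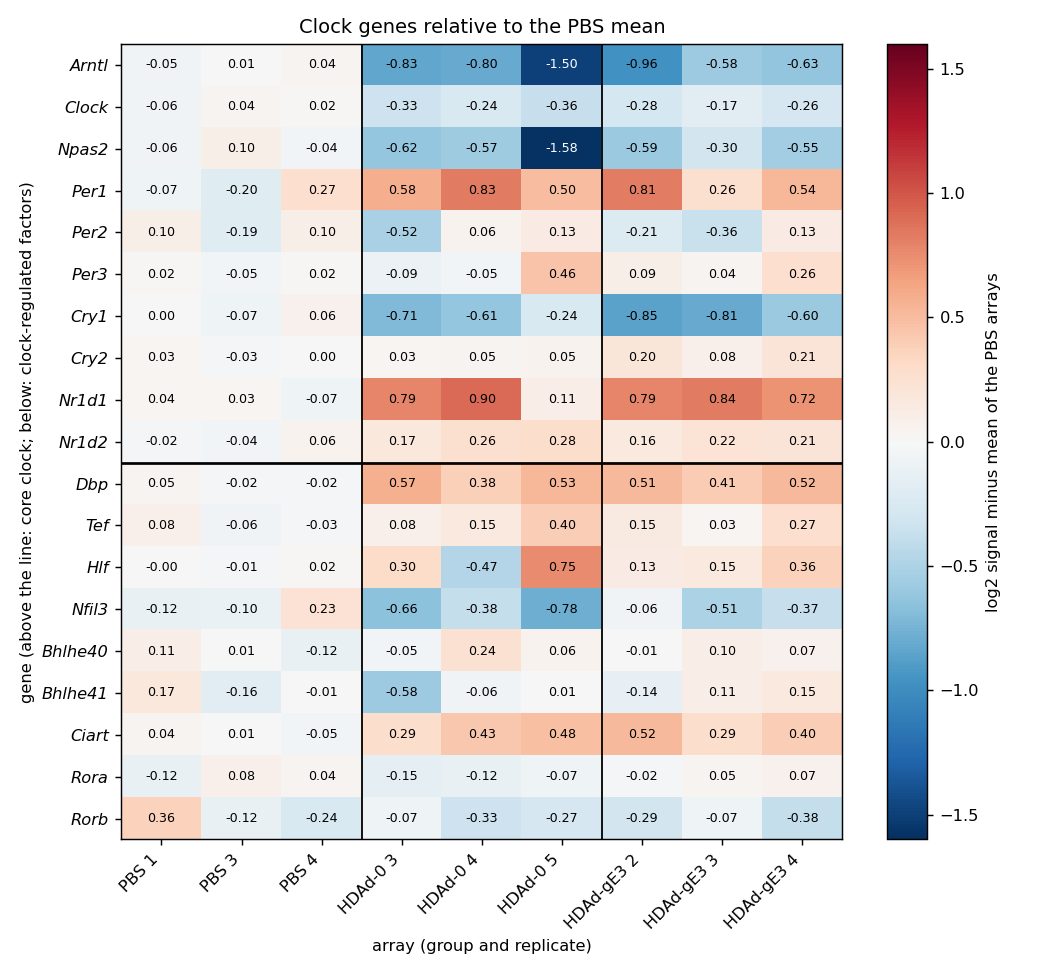
Log2 signal minus the mean of the PBS arrays (colour and printed value) for the 10 core clock genes and 9 clock-regulated transcription factors (vertical axis) on each array (horizontal axis). Arntl and Npas2 are lowest in HDAd-0 replicate 5 (-1.50 and -1.58), where Nr1d1 (0.11) is nearest to PBS, and Dbp and Ciart are above PBS on all 6 vector arrays.

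The other probe sets of the genes differed in what they showed. Clock has 4 probe sets, and 1435775_at (mean signal 8.72) was also lower than PBS without overlap, by -0.24 ± 0.079 with HDAd-0 and -0.18 ± 0.079 with HDAd-gE3 in the fit over 45037 probe sets. The others, 1418660_at (-0.07 and 0.14) and the dim 1439314_at (-0.18 and 0.05), did not hold the direction for HDAd-gE3. The second probe set of Arntl (1457740_at, mean 3.01) was dim and moved by -0.05 with HDAd-0 and -0.11 with HDAd-gE3. That of Npas2 (1421036_at, mean 6.26) was brighter than 45.4% of probe sets. It moved by -0.12 ± 0.15 with HDAd-0 and -0.18 ± 0.15 with HDAd-gE3, and both groups overlapped PBS on it. For Nr1d2 the dimmer 1416959_at also read higher than PBS, by 0.62 ± 0.20 with HDAd-0 and 0.63 ± 0.20 with HDAd-gE3. Its HDAd-0 replicate 4 (6.08) lay inside the PBS range of 5.88 to 6.19, so only HDAd-gE3 was free of overlap.

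Per2 and Per3 depended on the probe set. The dim Per2 probe set 1417603_at read 5.60, 5.38 and 5.39 with PBS, 5.74, 5.92 and 5.87 with HDAd-0, and 5.74, 5.74 and 5.97 with HDAd-gE3. Both vector groups were above PBS on it without overlap, by 0.38 ± 0.096 and 0.36 ± 0.096, unlike on the brightest probe set. The third, 1457350_at, gave -0.02 and 0.08. Of the 6 probe sets of Per3, 4 were higher in all HDAd-gE3 arrays than in all PBS arrays. Beside the brightest these were 1442243_at (0.32 ± 0.14), 1441445_at (0.61 ± 0.23) and 1458176_at (0.59 ± 0.22). The dimmest, 1421086_at and 1460662_at, gave -0.21 ± 0.16 and -0.07 ± 0.15. Between the vectors, 1421086_at was lower with HDAd-gE3 without overlap (-0.46 ± 0.16), while 1441445_at gave 0.46 ± 0.23 with overlap. Against PBS, HDAd-0 overlapped on all 6. Per3 and Uts2, which encodes a vasoactive peptide, share 4714 bases in RefSeq, and which probe sets lie in that stretch was not tested.

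**Figure D4:**
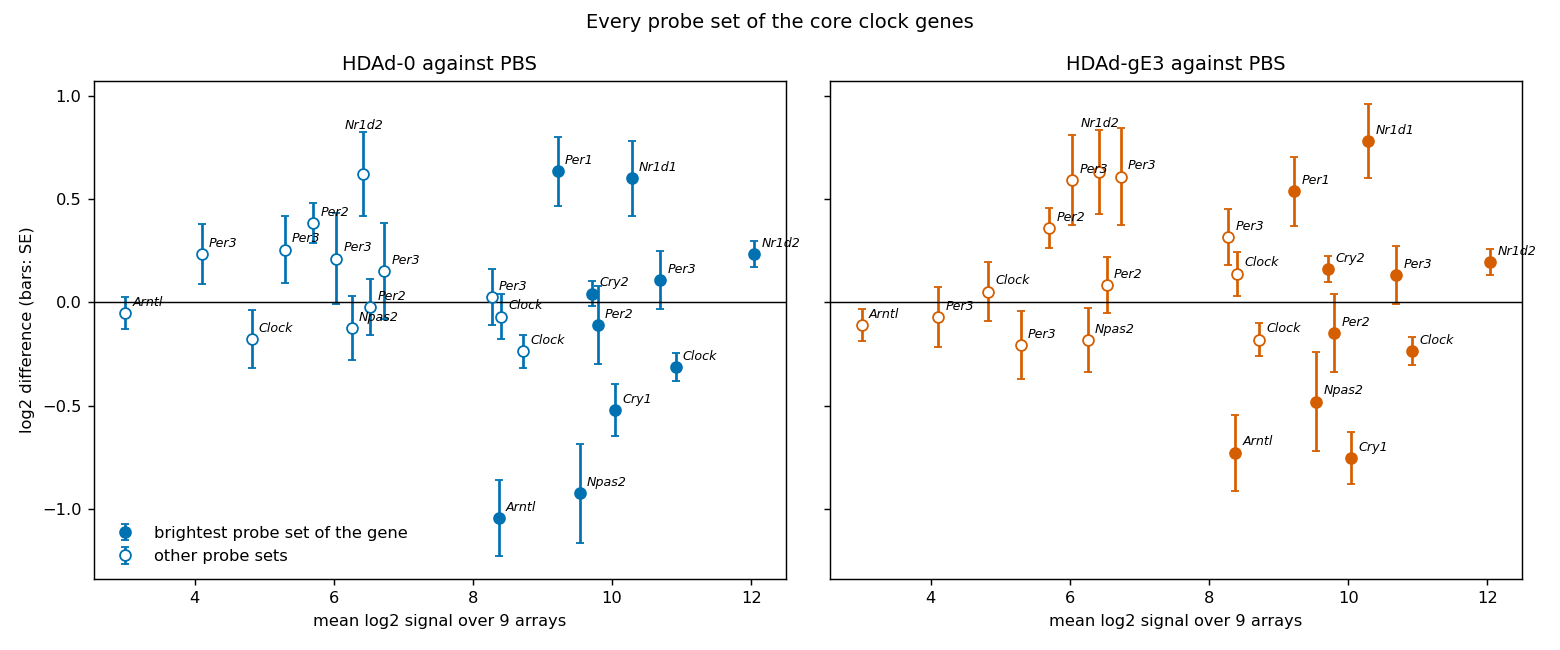
Log2 difference from PBS (vertical axis, bars are SE) of all 23 probe sets of the core clock genes against their mean log2 signal over the 9 arrays (horizontal axis), for HDAd-0 (left) and HDAd-gE3 (right); filled points are the brightest probe set of each gene and open points the others. The open Per3 points spread from -0.21 to 0.61 in the HDAd-gE3 panel.

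Genes of like pattern were ranked by Pearson's r over the 9 arrays among 9088 genes at or above the median signal. The arrays share their groups, so r mixes differences between and within groups, and it is given as a description. Nearest to Arntl were Ficd (r = 0.964), Diaph2 (0.963), Grk5 (0.955), 4930523C07Rik (0.951) and Pde7a (0.930). Nearest to Nr1d1 were Ell (0.967), Kat5 (0.939), Pef1 (0.932), Cgref1 (0.930) and Rnf10 (0.929). Nearest to Per2 were Mapk14 (0.925), Wfs1 (0.884), Zfp410 (0.883), Nup153 (0.848) and Urb2 (0.836). With the group means removed, r ran from 0.586 (Pde7a) to 0.959 (Grk5) for Arntl, from 0.719 (Rnf10) to 0.949 (Ell) for Nr1d1, and from 0.846 (Urb2) to 0.961 (Mapk14) for Per2. These genes were picked for a high r on the same arrays. On HDAd-0 replicate 5, Grk5 read 10.30 beside 10.58 and 10.63 on replicates 3 and 4, and Ell 9.70 beside 9.82 and 9.80. The correlation without that array was not computed.

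Around the core loop stand transcription factors that it drives and that feed back on it, and 9 of them were analysed. None of the 9 passed limma's adjusted threshold in a comparison with the settings used throughout. At an unadjusted p under 0.05, 2 were higher and 1 lower for HDAd-0 against PBS, and 2 were higher for HDAd-gE3 against PBS. Of all genes, 12.9% and 13.2% passed that limit in these comparisons. The list's median differences were 0.0858, 0.00149 and 0.0549 for HDAd-0 against PBS, HDAd-gE3 against HDAd-0 and HDAd-gE3 against PBS, beside medians of 0.0244, -0.0397 and -0.0152 over all genes. Dbp, the D-box activator and a direct E-box target, read 12.23, 12.15 and 12.15 with PBS, 12.75, 12.56 and 12.70 with HDAd-0, and 12.69, 12.59 and 12.69 with HDAd-gE3. The vector arrays were all above PBS, by 0.49 ± 0.068 with HDAd-0 (1.41-fold, limma adjusted p = 0.0668) and 0.48 ± 0.068 with HDAd-gE3 (1.40-fold, adjusted p = 0.0547). Dbp passed the threshold in 6 of 18 alternatives for HDAd-0 and 7 of 18 for HDAd-gE3 against PBS, and its differences were 0.81 and 0.78 on its most variable probe set (limma adjusted p = 0.0363 and 0.036). Ciart, a repressor of the CLOCK and BMAL1 complex, read 7.31, 7.29 and 7.22 with PBS, 7.56, 7.70 and 7.76 with HDAd-0, and 7.79, 7.56 and 7.67 with HDAd-gE3. It too was above PBS on all vector arrays, by 0.40 ± 0.079 in both comparisons (limma adjusted p = 0.140 and 0.103).

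Nfil3, the D-box repressor that opposes Dbp, read 10.11, 10.14 and 10.47 with PBS, 9.58, 9.86 and 9.45 with HDAd-0, and 10.18, 9.73 and 9.87 with HDAd-gE3. HDAd-0 lay below PBS without overlap (-0.61 ± 0.15, limma adjusted p = 0.191) while HDAd-gE3 overlapped both groups (-0.31 ± 0.15 against PBS, adjusted p = 0.424). Tef, a relative of Dbp, read 11.43 to 11.57 with PBS, 11.57 to 11.88 with HDAd-0 and 11.51 to 11.75 with HDAd-gE3. Hlf, another, ranged from 9.09 to 10.32 within HDAd-0 alone, with replicate 5 highest, against 9.55 to 9.58 with PBS. Rora, an activator at RREs, gave the smallest p of the list between the vectors (0.14 ± 0.067, limma adjusted p = 0.410), and Bhlhe41, a repressor at E-boxes, gave 0.25 ± 0.16 there (adjusted p = 0.535).

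**Figure D5:**
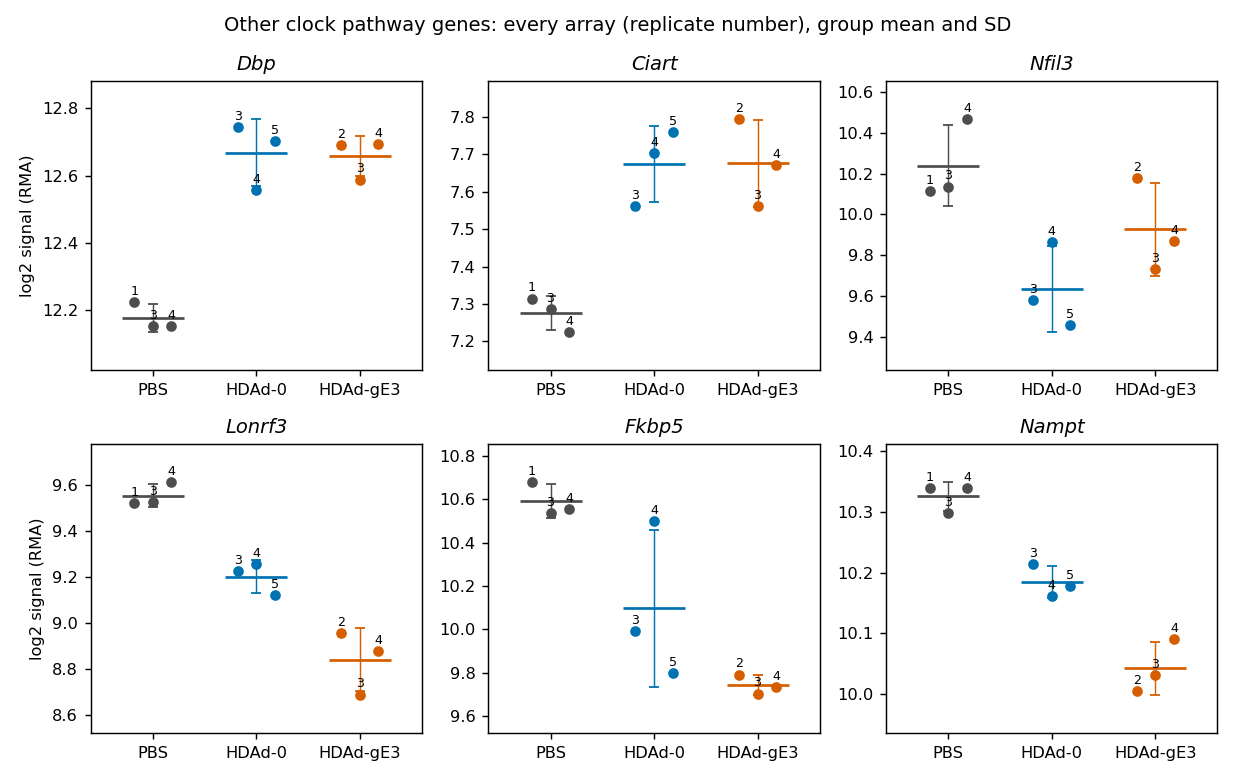
Log2 signal (vertical axis, a separate scale in each panel) of 6 other clock pathway genes on every array of the PBS, HDAd-0 and HDAd-gE3 groups (horizontal axis); points carry replicate numbers, long bars are group means and whiskers are SDs (n = 3). Dbp and Ciart sit above PBS in both vector groups, Lonrf3 and Nampt step down from PBS to HDAd-0 to HDAd-gE3, and Fkbp5 is spread from 9.80 to 10.50 within HDAd-0.

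Enzymes that modify clock proteins set the pace of the loop. Of 19 measured kinases, phosphatases and ubiquitin enzymes, 0 passed limma's adjusted threshold. The unadjusted counts were 0 higher and 2 lower for HDAd-0 against PBS, and 2 and 0 between the vectors. They were 0 and 1 for HDAd-gE3 against PBS. Over all genes the unadjusted shares in these comparisons were 12.9%, 12.9% and 13.2%. Prkaa2, a catalytic subunit of AMP-activated kinase, which phosphorylates cryptochromes, read 9.97, 9.87 and 9.90 with PBS, 9.46, 9.43 and 9.65 with HDAd-0, and 10.09, 9.83 and 9.84 with HDAd-gE3. All HDAd-0 arrays were below those of both other groups, by -0.40 ± 0.092 against PBS and with 0.41 ± 0.092 between the vectors (limma adjusted p = 0.163 and 0.196). Cardiac muscle markers were also lowest on HDAd-0 replicates 3 and 4 (15.12 on each), and their part in Prkaa2 was not tested. Fbxw7, a ubiquitin ligase subunit, gave -0.26 ± 0.091 for HDAd-0 against PBS and 0.25 ± 0.091 between the vectors (adjusted p = 0.304 and 0.337 in limma). Usp2, a deubiquitinase with a strong daily rhythm, gave -0.40 ± 0.20 for HDAd-0 against PBS (limma adjusted p = 0.437). Casein kinase catalytic subunit gene Csnk2a1 gave 0.24 ± 0.10 between the vectors, and Gsk3a, Prkaa1 and Csnk2a2 gave -0.19, -0.13 and -0.15 for HDAd-gE3 against PBS. The list's medians were -0.0403, 0.00705 and -0.0212 in the 3 comparisons.

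Cofactors of the clock complexes (15 of 17 measured; Ncor1 and Rack1 are not analysed here) also gave 0 genes past the adjusted threshold in limma. Without adjustment, 3 were higher and 4 lower for HDAd-0 against PBS, 1 and 4 between the vectors, and 2 and 1 for HDAd-gE3 against PBS. Of all genes, 12.9%, 12.9% and 13.2% passed unadjusted. The list's medians were -0.0583, -0.0212 and -0.0386. Timeless, which binds cryptochromes and protects replication forks, read 8.19, 8.31 and 8.11 with PBS, 8.55, 8.48 and 8.50 with HDAd-0, and 8.00, 8.31 and 8.21 with HDAd-gE3. HDAd-0 was above both other groups, by 0.30 ± 0.089 over PBS and with -0.34 ± 0.089 between the vectors (limma adjusted p = 0.234 in each). Its partner Tipin was higher with both vectors than with PBS (0.22 ± 0.065 and 0.19 ± 0.065, limma adjusted p = 0.234 and 0.276). Hdac3, the deacetylase that REV-ERB recruits, was above PBS by 0.24 ± 0.097 with HDAd-0 and 0.27 ± 0.097 with HDAd-gE3 (limma adjusted p = 0.348 and 0.298). The histone modifiers Crebbp (-0.19 ± 0.061 for HDAd-0 against PBS) and Kmt2a (0.33 ± 0.10 between the vectors) had limma adjusted p of 0.276 and 0.274. Crebbp turned to 0.54 on its most variable probe set.

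Nampt, an E-box target that makes the NAD used by sirtuins, read 10.34, 10.30 and 10.34 with PBS, 10.21, 10.16 and 10.18 with HDAd-0, and 10.01, 10.03 and 10.09 with HDAd-gE3. The 3 groups stood in that order without overlap, with log2 differences of -0.14 ± 0.052, -0.14 ± 0.052 and -0.28 ± 0.052 (limma adjusted p = 0.316, 0.333 and 0.0873). On its most variable probe set the difference between the vectors was 0.11 instead.

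Of genes known to cycle in many organs, 18 of 19 were measured (Por is not analysed here). Lonrf3, a RING finger gene, was the only one to pass the threshold, and only for HDAd-gE3 against PBS. It read 9.52, 9.53 and 9.61 with PBS, 9.23, 9.26 and 9.12 with HDAd-0, and 8.96, 8.69 and 8.88 with HDAd-gE3. The groups stepped down without overlap. Lonrf3 was 1.64-fold lower with HDAd-gE3 than with PBS (-0.71 ± 0.079, limma adjusted p = 0.031), with -0.35 ± 0.079 for HDAd-0 against PBS and -0.36 ± 0.079 between the vectors (limma adjusted p = 0.158 and 0.196). It lost the call without any 1 PBS or HDAd-gE3 array (limma adjusted p up to 0.166), while its difference stayed between -0.77 and -0.64, and with only the 2 groups compared (limma adjusted p = 0.0582). Without adjustment 2 genes were higher and 5 lower for HDAd-0 against PBS, 1 and 3 between the vectors, and 1 and 5 for HDAd-gE3 against PBS. Of all genes, 12.9%, 12.9% and 13.2% passed unadjusted. The list's medians were -0.0827, -0.0978 and -0.142. Ppargc1a, a coactivator of mitochondrial genes that also works with RORs, gave 0.60 ± 0.26 between the vectors with overlapping arrays (limma adjusted p = 0.376).

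Glucocorticoids reset clocks in peripheral tissue and act on Per1 directly, so 12 of 12 glucocorticoid-induced genes were followed, several of them also in the list of cycling genes. In limma 0 passed the adjusted threshold. Without adjustment 1 was higher and 4 lower for HDAd-0 against PBS, 0 and 2 between the vectors, and 1 and 3 for HDAd-gE3 against PBS. Of all genes, 12.9%, 12.9% and 13.2% passed unadjusted. The list's medians were -0.0172, -0.0548 and -0.0838. Fkbp5, a co-chaperone of the glucocorticoid receptor, read 10.68, 10.54 and 10.56 with PBS, 9.99, 10.50 and 9.80 with HDAd-0, and 9.79, 9.70 and 9.74 with HDAd-gE3. It was 1.80-fold lower with HDAd-gE3 than with PBS (-0.85 ± 0.15, limma adjusted p = 0.0872), -0.49 ± 0.15 with HDAd-0 (adjusted p = 0.256) and -0.35 ± 0.15 between the vectors (adjusted p = 0.387). For HDAd-gE3 against PBS it passed the threshold in 6 of 18 alternatives, the fit of only the 2 groups compared among them (limma adjusted p = 0.0381). HDAd-0 replicate 4 was close to PBS, and without it the HDAd-0 difference from PBS was -0.69 and passed the threshold (limma adjusted p = 0.0359). Zbtb16, a zinc finger repressor, gave -0.38 ± 0.096 with both vectors against PBS, and Cdkn1a, a cell cycle inhibitor, -0.26 ± 0.064 with HDAd-0 (limma adjusted p from 0.186 to 0.194). Pdk4 instead read above all PBS arrays, by 0.15 ± 0.060 with HDAd-0 and 0.22 ± 0.060 with HDAd-gE3 (limma adjusted p = 0.358 and 0.211). By sign, 6 genes of the list were higher and 6 lower for HDAd-0 against PBS, and 4 and 8 for HDAd-gE3 against PBS. Mt1, a metallothionein, gave -0.33 ± 0.065 for HDAd-gE3 against PBS and -0.18 ± 0.065 between the vectors (limma adjusted p = 0.0957 and 0.333), but 0.415 against PBS on its most variable probe set. Nfkbia, the inhibitor of NF-kappa B, gave -0.13 ± 0.067 between the vectors (limma adjusted p = 0.441).

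Over the 65 genes of the 5 lists together, each counted once, 0, 0 and 1 passed the adjusted threshold in the 3 comparisons. At an unadjusted p under 0.05 it was 30.8% for HDAd-0 against PBS, 16.9% between the vectors and 18.5% for HDAd-gE3 against PBS, and the arrays did not overlap for 32.3%, 24.6% and 38.5%. Over all genes the unadjusted shares were 12.9%, 12.9% and 13.2%, and those without overlap 18.8%, 16.3% and 23.9%. The lists were chosen with earlier results of these arrays known, so nothing is read from the shares of the lists.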

How the data were processed

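RNA of pooled aortas was hybridised to Affymetrix mouse arrays. The deposited values are log2 signals of 45101 probe sets. RMA (version not given in the sources) produced them, per the submitters' processing notes. RMA equalises the arrays' distributions, which hides any shift common to most genes. That the scale is log2 was read from the range. By the platform annotation, 34945 probe sets have 1 gene, 932 have several, 9160 have no gene and 64 are controls; 34741 matched RefSeq (GRCm38.p6) by gene identifier.

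Each gene was represented by its probe set with the highest mean, and no dim gene was removed. The 3 groups were fitted together in limma 3.58.1 (lmFit, eBayes; R 4.3.3) leaving 6 residual degrees of freedom. Benjamini-Hochberg adjustment ran over 18193 genes with a threshold of 0.05. Other probe sets were fitted over 45037 non-control probe sets. The procedure was tested on simulated data. Marker levels are log2 of summed linear signals. Figures were drawn with matplotlib 3.10.9.

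The clock genes, the other gene lists and the rule for named genes were chosen with earlier results of these data known. The rule names all 10 clock genes and, per list and comparison, genes past the threshold or else the 3 with the smallest p. Tef, Hlf and Pdk4 are named outside this rule. Genes of like pattern are the 5 with the highest r for Arntl, Nr1d1 and Per2. The labels describe pools of separate aortas as replicates, and p-values measure the spread between those pools. Alternatives were other probe sets, scalings, weights, thresholds, a filter, a replicate block and leaving out each array.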

Additional observations from a re-analysis of the deposited data

How the results depend on the processing

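Each of the 30 differences of the clock genes was recomputed under 18 alternatives, and 520 of the 540 values kept their sign. Of the 9 differences that changed sign, 8 were between the vectors or of Per2 or Per3. The remaining 1 was Clock, HDAd-gE3 against PBS, at 0.05 on its most variable probe set. With array weights 4 clock genes passed the threshold for HDAd-gE3 against PBS (Arntl, Cry1, Nr1d1 and Nr1d2). With an intensity trend Cry1 passed there, and with only the 2 groups compared Nr1d1 did. Without HDAd-0 replicate 5, Cry1 and Nr1d1 passed there, where 15 of all genes did. In that same fit Nr1d1 also passed between HDAd-0 and PBS, where 3 of all genes did. The clock genes were chosen from these contrasts, so these calls carry no test and nothing is read from them. Of all genes, 12 passed for HDAd-0 against PBS. This count was 3 with the most variable probe set per gene, 1 with median centring, 1 with quantile normalization repeated, 24 without dim genes, 0 with only the 2 groups compared, 35 at a threshold of 0.1 and 2346 at an unadjusted p under 0.05, and 0 to 31 when 1 array was left out. For HDAd-gE3 against HDAd-0 the count of 1 became 0 with the most variable probe set, either scaling, array weights or only the 2 groups compared, 2340 unadjusted, and 0 to 10 with 1 array left out. For HDAd-gE3 against PBS the count of 23 became 39 without dim genes, 804 with array weights, 89 with an intensity trend, 13 with only the 2 groups compared, 134 at 0.1, 2402 unadjusted, and 0 to 21 with 1 array left out. With the replicate block all 3 counts were 0; same-numbered arrays deviated with r from -0.0465 to 0.0999 over 6 pairs, so the numbers were not taken as pairs. Among the other clock pathway genes, HDAd-0 against PBS gave 0, but 1 with the mean of probe sets, the most variable probe set, dim genes left out, array weights, an intensity trend or a threshold of 0.1, 20 unadjusted and 0 to 2 with 1 array left out. HDAd-gE3 against HDAd-0 gave 0, and 11 unadjusted. HDAd-gE3 against PBS gave 1, but 3 with the mean of probe sets or the most variable one, 2 with median centring or without dim genes, 8 with array weights, 4 with an intensity trend, 0 with the replicate block (Lonrf3 adjusted p = 0.388 in limma), 5 at 0.1, 12 unadjusted and 0 to 3 with 1 array left out. Signs turned for Crebbp, HDAd-0 against PBS (0.0252 with the mean of probe sets, 0.539 with the most variable), Mt1, HDAd-gE3 against PBS (0.0400 and 0.415), and, between the vectors, Csnk2a1 (-0.0126) and Nampt (0.112) with the most variable. Where probe sets differ the cause was not tested. With 3 arrays a group, precision is limited by their number, and signals near the lower end of the range, such as the second Arntl probe set, lie close to background.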
